A study of Mus musculus with 8 samples.

Results

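Acute phase proteins are plasma proteins whose output from the liver shifts during inflammation. Transcripts of 10 of them were examined here: the serum amyloid A genes Saa1, Saa2, Saa3 and Saa4, the orosomucoid Orm2, haptoglobin (Hp), hemopexin (Hpx), lipocalin 2 (Lcn2), serum amyloid P (Apcs) and Itih4. They were chosen by name as acute phase proteins, with earlier results of these data known. All 10 of 10 were found among the 19938 genes of the array table, each with exactly 1 probe set (transcript cluster) that carries only that symbol. The samples were livers of C57BL6 mice that had been fasted for 17 h. Mice of the hydrogen water group (4 arrays) received hydrogen water for 4 weeks from an age of 7 weeks, whereas the control group (4 arrays) is named in its titles and sample descriptions with the fast alone. The treatment text of the labels, however, names hydrogen water for all 8 samples, controls included, so the groups rest on the titles and descriptions, and what the controls drank is not settled by the labels. The fast, housing at 24 °C and a cycle of 12 h light and 12 h dark were common to all 8 arrays. Sex is not given in the labels, and unfasted or inflamed livers are not analysed here. Whether every array comes from its own mouse is not spelled out in the labels, so p-values measure the spread between these arrays, which may be technical.

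The acute phase response is driven mainly by interleukin-6 and interleukin-1, which reach hepatocytes during infection or injury and act through the transcription factors STAT3, C/EBP and NF-kB. Serum amyloid A genes are known as its steepest responders in the mouse, whereas Saa4 is described as largely constitutive. Haptoglobin and hemopexin, which bind free haemoglobin and haem, are abundant in healthy plasma and respond less steeply. Serum amyloid P, a pentraxin, is a major acute phase reactant of the mouse.

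The regulatory sequence directly before the start site is shown for the members whose values vary most between arrays, with matches to 4 short patterns of acute phase transcription factors in capitals. The sequences are RefSeq's (build GRCm38.p6), 250 bases each, read 5′ to 3′ on the gene's strand and ending at the base before the annotated start. They lie at chr7:46742981-46743230 (minus strand) for Saa1, chr7:46751583-46751832 (plus strand) for Saa2, chr7:46732604-46732853 (minus strand) for Saa4, chr2:32387740-32387989 (minus strand) for Lcn2, chr4:63362199-63362448 (plus strand) for Orm2 and chr1:172895055-172895304 (minus strand) for Apcs.
Saa1: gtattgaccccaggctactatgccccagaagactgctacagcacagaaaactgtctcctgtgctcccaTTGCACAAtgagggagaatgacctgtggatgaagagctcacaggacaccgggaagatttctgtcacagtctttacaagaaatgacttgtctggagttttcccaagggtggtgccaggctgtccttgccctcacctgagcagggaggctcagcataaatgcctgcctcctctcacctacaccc
Saa2: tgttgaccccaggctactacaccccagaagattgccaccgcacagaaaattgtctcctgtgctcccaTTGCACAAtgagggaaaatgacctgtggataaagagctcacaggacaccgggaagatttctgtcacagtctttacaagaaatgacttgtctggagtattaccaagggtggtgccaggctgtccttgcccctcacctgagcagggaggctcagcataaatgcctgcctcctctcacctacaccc
Saa4: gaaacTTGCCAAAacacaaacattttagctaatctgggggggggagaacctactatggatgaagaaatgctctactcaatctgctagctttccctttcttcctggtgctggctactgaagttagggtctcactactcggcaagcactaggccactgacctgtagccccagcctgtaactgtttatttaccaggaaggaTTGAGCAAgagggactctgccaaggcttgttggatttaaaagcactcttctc
Lcn2: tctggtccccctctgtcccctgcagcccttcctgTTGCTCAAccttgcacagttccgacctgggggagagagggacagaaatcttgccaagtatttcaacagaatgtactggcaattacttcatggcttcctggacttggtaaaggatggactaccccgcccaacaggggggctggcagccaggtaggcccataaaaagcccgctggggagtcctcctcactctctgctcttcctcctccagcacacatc
Orm2: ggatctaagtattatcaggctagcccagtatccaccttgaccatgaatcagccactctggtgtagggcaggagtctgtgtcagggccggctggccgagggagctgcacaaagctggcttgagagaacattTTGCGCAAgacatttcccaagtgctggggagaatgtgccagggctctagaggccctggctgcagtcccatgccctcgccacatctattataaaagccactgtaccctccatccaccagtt
Apcs: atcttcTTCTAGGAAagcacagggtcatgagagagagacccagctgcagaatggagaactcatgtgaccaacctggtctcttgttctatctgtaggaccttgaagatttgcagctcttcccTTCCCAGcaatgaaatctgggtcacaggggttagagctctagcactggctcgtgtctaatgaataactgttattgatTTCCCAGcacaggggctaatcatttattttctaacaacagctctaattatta

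In the first 5 of these, the capitals are matches to TTGCNNAA, a pattern for C/EBP factors; in Apcs they are a match to the STAT pattern TTCNNNGAA and matches to CTGGGAA, the core of an interleukin-6 response element. Both strands were searched, and the patterns can overlap.

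The C/EBP pattern was present before the start of 7 of the 9 members with an entry in the promoter table (Saa1, Saa2, Saa3, Saa4, Lcn2, Orm2 and Hpx), and before 9.55% of all 27025 promoters of the same length. In Orm2 the match was the palindrome TTGCGCAA, 120 bases before the start. In Saa1 and Saa2 it was TTGCACAA, at 182 and 183 bases. The STAT pattern was found in Apcs and Itih4 (2 of 9, against 7.18% of all promoters), the interleukin-6 response element core in Apcs alone (9.08% of all), and the NF-kB pattern GGNNNTTCC in Saa3 alone (15.6% of all). A match is a description of the letters in this window and not a binding site. Hp has no entry in this table. The Saa1 and Saa2 windows were 94.8% identical (238 of 251 aligned columns), whereas the other pairs of serum amyloid A windows were between 46.8% and 52.4% identical. These 4 genes lie side by side on chromosome 7, in the order Saa3, Saa4, Saa1 and Saa2, with the pseudogene Saa-ps and a predicted gene between them. RefSeq lists Saa2 as a synonym of Saa1 and Saa1 as a synonym of Saa2, so older gene names for them can be crossed; the current symbol of each Entrez identifier is used here. As close copies, Saa1 and Saa2 may share hybridisation to each other's probes, and their separate values carry that uncertainty.

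Values are log2 signals, in which a difference of 1 is a doubling. Signals of different probe sets are set against each other only as a rough guide to level among all genes. The median log2 signal of an array lay between 5.27 and 5.37, and arrays correlated at 0.988 to 0.995 over all genes. Control 3 stood apart most: 19.8% of all genes had their highest and 18.4% their lowest value there, followed by hydrogen water 4 with 16.6% and 15.8%. Hepatocyte markers were present, with 11 of 11 measured markers at 13.03 or above on every array.

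By SD, serum amyloid A transcripts varied more among controls than the group means differed. Among hydrogen water arrays this held for Saa1, Saa2 and Saa3 but not for Saa4. Saa1 (transcript cluster 10563611), an inducible isoform carried by high-density lipoprotein as Saa2 is, stood at 5.99, 4.999, 5.05 and 5.96 in controls 1 to 4 and at 5.40, 5.51, 5.23 and 5.04 in hydrogen water 1 to 4. Controls 1 and 4 were high, and controls 2 and 3 lay beside hydrogen water 4, the lowest array of that group. The mean signal of Saa1 was low, at the 43.0 percentile of all genes and below their median of 5.87. The difference was −0.20 (95% interval −0.70 to 0.29; limma adjusted p = 0.894). With single arrays left out it ran from −0.37 (without control 2) to −0.042 (without control 1), and it was −0.35 without control 3, −0.049 without control 4 and −0.12 without hydrogen water 4. Saa2 (10553274) stood at 7.58, 6.92, 7.82 and 7.68 in controls and at 7.11, 7.58, 7.43 and 7.41 with hydrogen water. Its lowest and its highest array were both controls, and the difference was −0.12 (95% interval −0.51 to 0.27; limma adjusted p = 0.925). It ran from −0.31 (without control 2) to −0.013 (without control 3), with −0.062 without control 4, −0.031 without hydrogen water 1, −0.19 without hydrogen water 2 and −0.012 when arrays were weighted.

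Saa3 (10563597), an isoform also made by macrophages and adipocytes, stood at 6.86, 6.09, 6.67 and 6.63 in controls and at 6.55, 6.73, 6.46 and 6.05 with hydrogen water. Control 2 and hydrogen water 4 were the low arrays of their groups. The difference of −0.11 (95% interval −0.50 to 0.27; limma adjusted p = 0.930) became 0.018 without hydrogen water 4, −0.013 without control 1, −0.27 without control 2 and −0.21 without hydrogen water 2. Saa4 (10563602) stood at 11.59, 11.05, 12.03 and 11.31 in controls and at 11.28, 11.29, 11.01 and 11.22 with hydrogen water. Control 3 was the high array, and the hydrogen water arrays spanned only 0.27. Saa4 differed by −0.30 (95% interval −0.68 to 0.092; limma adjusted p = 0.777), and by −0.12 without control 3 and −0.44 without control 2.

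Among the lipocalin-fold proteins, Orm2 (10505451), an alpha-1-acid glycoprotein that binds drugs and steroids, had the widest difference of the 10 genes. It stood at 9.24, 9.04, 9.87 and 8.63 in controls and at 8.48, 8.74, 8.53 and 8.85 with hydrogen water. Controls 1, 2 and 3 lay above every hydrogen water array, while control 4 lay inside their range. The means were 9.20 ± 0.52 (SD, n = 4) in controls and 8.65 ± 0.17 (SD, n = 4) with hydrogen water, and the groups differed by −0.54 (95% interval from −1.01 to −0.081). The p-value adjusted over all genes was 0.686 by limma, and without control 3 the difference was −0.32. Lcn2 (10481627), which withholds iron from bacteria by binding their siderophores, stood at 7.44, 6.29, 8.94 and 8.28 in controls and at 7.17, 7.50, 7.14 and 7.97 with hydrogen water. The controls alone spanned 2.64, or 6.24-fold, with control 2 lowest and control 3 highest of all 8 arrays. The difference of −0.29 had a 95% interval of −1.25 to 0.66 (limma adjusted p = 0.925). It was −0.77 without control 2, 0.11 without control 3 and −0.11 without control 4. When arrays were weighted it was −0.0098, with control 3 given the lowest weight (0.424).

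The scavengers of haemoglobin and haem lay within a narrow band. Hp (10581605) stood at 13.43, 13.43, 13.39 and 13.40 in controls and at 13.48, 13.39, 13.15 and 13.24 with hydrogen water. Hydrogen water 3 and 4 were lower than every control, and hydrogen water 1 was higher than every control. The difference was −0.099 (95% interval −0.32 to 0.12; limma adjusted p = 0.886), and −0.15 (without hydrogen water 1) to −0.044 (without hydrogen water 3) with single arrays left out. Hpx (10566477) stood at 13.90, 13.90, 13.66 and 13.87 in controls and at 13.80, 13.90, 13.77 and 13.76 with hydrogen water, so that control 3 was its lowest array. It differed by −0.023 (95% interval −0.24 to 0.19; limma adjusted p = 0.979).

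Apcs (10360328) encodes serum amyloid P, which binds amyloid fibrils and chromatin. It stood at 9.90, 10.09, 9.44 and 9.97 in controls and at 9.68, 9.68, 9.26 and 9.04 with hydrogen water. Controls 1, 2 and 4 lay above all hydrogen water arrays, and control 3 lay among them. The means were 9.85 ± 0.28 (SD, n = 4) in controls and 9.42 ± 0.32 (SD, n = 4) with hydrogen water, and the groups differed by −0.43 (95% interval from −0.82 to −0.054). Adjusted over all genes by limma, its p was 0.687. Without control 3 the difference was −0.57 (limma adjusted p = 0.472). It shrank to −0.35 without control 2 and to −0.31 without hydrogen water 4 (limma adjusted p = 0.888 and 0.876). Itih4 (10413615), a relative of the inter-alpha-trypsin inhibitor heavy chains, was the steadiest of the 10. It stood at 13.15, 13.06, 13.04 and 13.16 in controls and at 13.10, 13.07, 13.08 and 13.09 with hydrogen water. Its difference was −0.018 (95% interval −0.21 to 0.18; limma adjusted p = 0.982), and −0.04 (without control 3) to −0.00018 (without control 4) with single arrays left out.

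**Figure D1:**
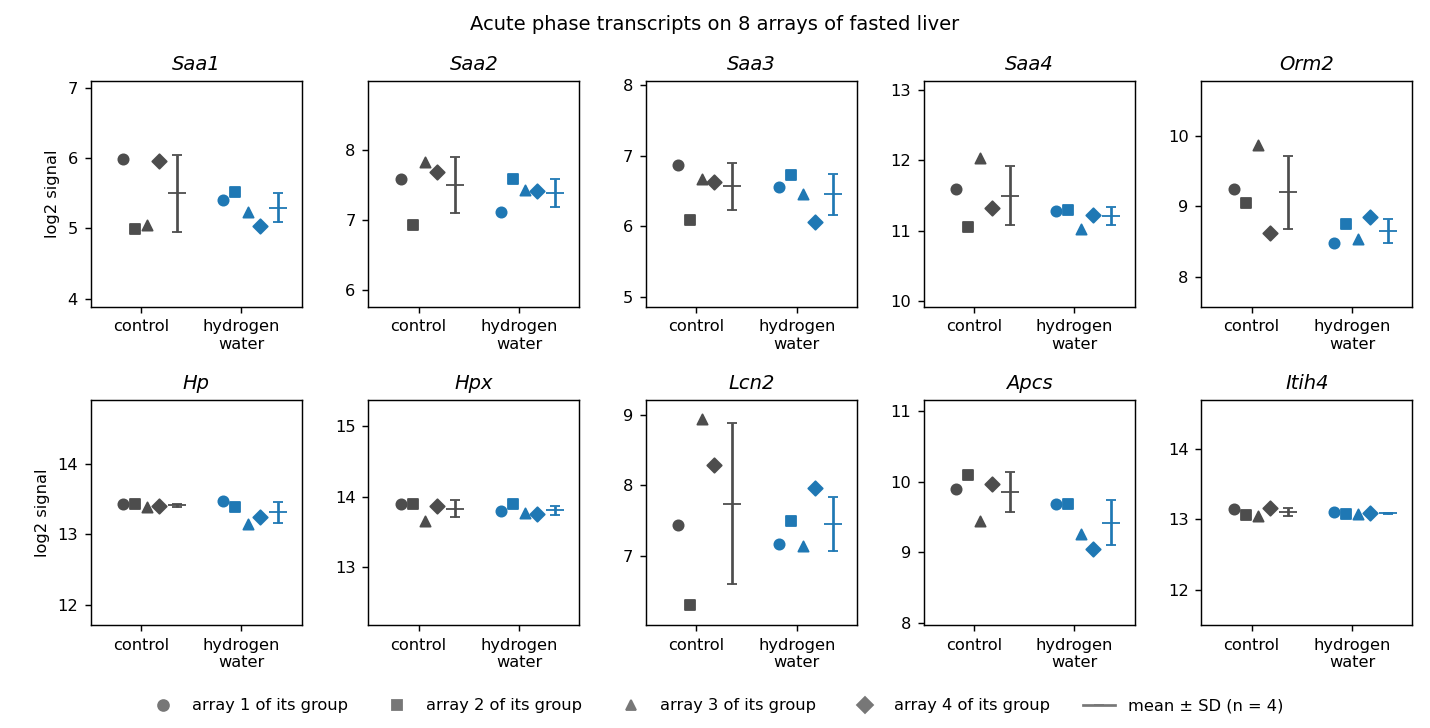
Log2 signal of each of the 10 acute phase genes (y axis; every panel spans the same 3.2 log2 units) on the 4 control arrays (grey) and the 4 hydrogen water arrays (blue), with marker shapes for the array number and bars for the mean ± SD. Lcn2 spreads from 6.29 to 8.94 within controls, the points of Itih4, Hp and Hpx lie close together, and the groups overlap in every panel.

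The comparison asked whether hepatic acute phase transcripts differed between hydrogen water and control livers after the fast. No member passed: by limma, 0 of 10 had an adjusted p under 0.05, beside 0% of all genes (0 of 19938; lowest adjusted p = 0.558). At an unadjusted p under 0.05 there were 2 of 10 (Orm2 and Apcs), where 7.17% of all genes (1429) reached that level. The mean was lower with hydrogen water in 10 of 10 members, with differences of −0.018 to −0.54, beside 51.3% of all genes. The median difference was −0.16 for the members and −0.0047 for all genes. In 9 of 10 members it was still lower without control 3 (Lcn2 was not), without control 2 (Hpx was not) and without hydrogen water 4 (Saa3 was not). With quantile normalization it was lower in 8 of 10, as Hpx (0.0015) and Itih4 (0.0061) then stood on the other side. In 0 of 10 members did the 4 arrays of a group lie wholly apart from the other 4, which happened in 3.76% of all genes, and with hydrogen water on the lower side in 2.01%. The members share the same 8 arrays, so the 10 directions are not independent of each other. In bulk liver, fewer cells of a type and less RNA per cell cannot be told apart.

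**Figure D2:**
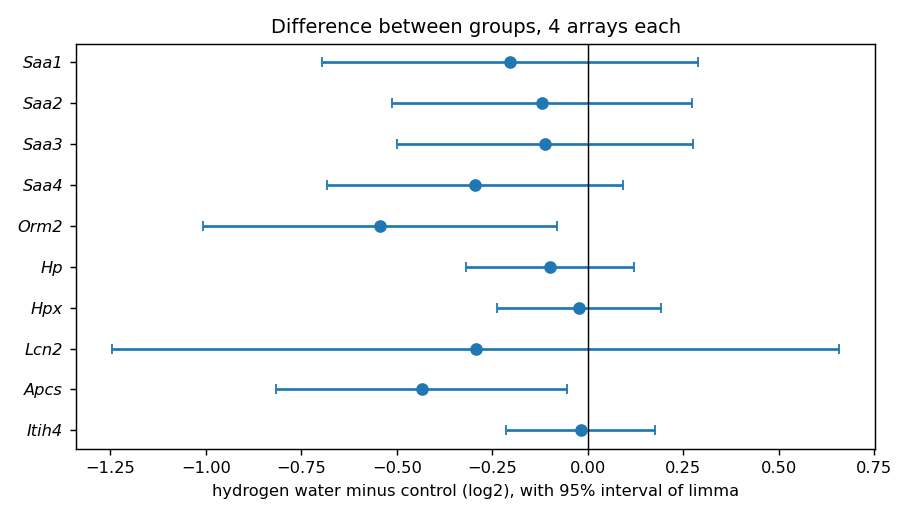
Difference of mean log2 signal, hydrogen water minus control, for each acute phase gene (points) with limma's 95% interval (bars); 4 arrays per group. All 10 points lie left of 0, from −0.02 for Itih4 to −0.54 for Orm2, and the intervals of Orm2 and Apcs alone leave 0 out before adjustment over all genes.

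The genes differed in how much they varied within a group. The pooled within-group SD was 0.85 for Lcn2, at the 99.9 percentile of all genes. It was 0.41 for Saa1, 0.39 for Orm2 and 0.30 to 0.31 for Apcs, Saa4, Saa3 and Saa2, at percentiles from 90.1 (Apcs) to 97.4 (Saa1). For Hp, Hpx and Itih4 it was 0.10, 0.095 and 0.044, at the 11.6, 8.14 and 0.291 percentiles. In mean signal these genes lay at the 99.7, 99.9 and 99.5 percentiles of all genes. Whether so high a signal narrows their spread on the array was not tested. The SD among controls exceeded that among hydrogen water arrays in 8 of 10 members, beside 52.7% of all genes. Hp and Apcs were the exceptions. The control SD was 5.68 times the hydrogen water SD for Itih4, 3.26 times for Saa4, 3.01 times for Orm2 and 2.97 times for Lcn2. Without control 3 the count was 7 of 10, beside 39.4% of all genes. The SD of 4 arrays is itself imprecise, and the difference in spread was not tested.

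No array was high in all members. Control 3 had the highest value of 4 members (Saa2, Saa4, Orm2 and Lcn2) and at the same time the lowest value of Hpx and Itih4. Controls 1 and 4 carried the high Saa1 values, 0.59 and 0.57 above the gene's mean over the 8 arrays, and control 1 also the highest Saa3. Control 2 was lowest in Saa1, Saa2 and Lcn2, yet highest in Apcs. Control 1 lay above the members' own means in 9 of 10 genes, all but Lcn2, and control 4 in 8 of 10. Hydrogen water 3 lay below the members' own means in 10 of 10 genes and hydrogen water 4 in 9 of 10, Lcn2 being the exception at 0.38 above. Averaged over the 10 genes, each centred on its own mean, the level was 0.20, −0.22, 0.28 and 0.18 in controls 1 to 4 and −0.11, 0.028, −0.21 and −0.15 in hydrogen water 1 to 4. Lcn2, with the widest spread, weighs most in that average. With each gene scaled to unit SD, control 1 (0.81 SD) and control 4 (0.61 SD) stood above control 3 (0.33 SD), and hydrogen water 3 (−0.70 SD) and 4 (−0.62 SD) were lowest.

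**Figure D3:**
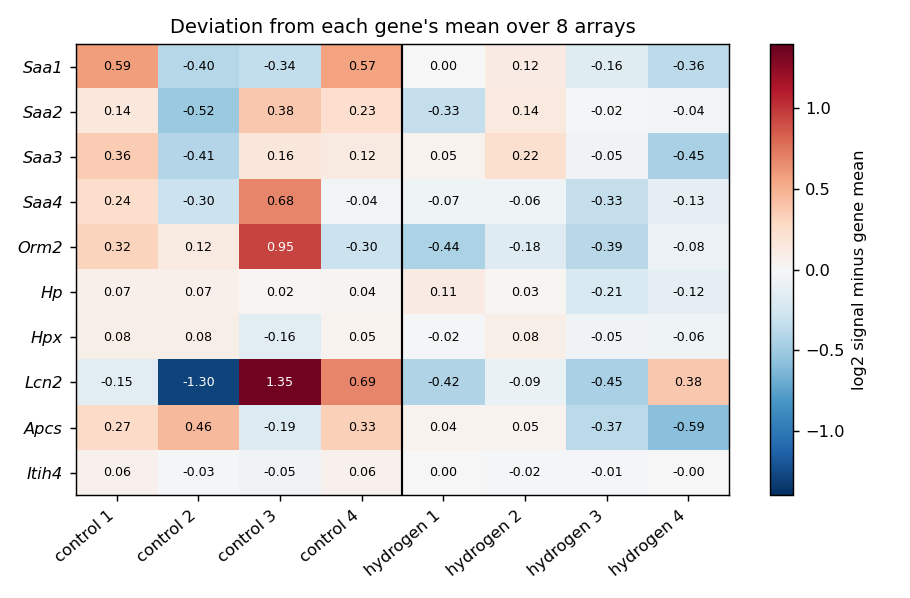
Deviation of each acute phase gene (rows) from its own mean over the 8 arrays (columns; controls left of the line), in log2 units, red above and blue below the mean. Control 3 is red for Lcn2 (1.35), Orm2 (0.95) and Saa4 (0.68) but blue for Saa1 (−0.34), Apcs (−0.19) and Hpx (−0.16).

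The co-variation of the members over the 8 arrays was described by 45 pairwise correlations. Pearson's r was above 0 in 33 pairs and below 0 in 12, with a median of 0.36, beside a median of 0.00 over all pairs of genes. Every member had a lower mean with hydrogen water, which can raise r over the 8 arrays. That count and median include the group difference. It exceeded 0.7 in 7 of 45 pairs (15.6%), beside 3.77% of all gene pairs. None of the 45 passed after adjustment (lowest adjusted p = 0.175, two-sided exact permutation of all 40320 pairings), and 7 had an unadjusted p under 0.05. By Spearman's rho 6 had an unadjusted p under 0.05 and 0 an adjusted one, again by the exact test. For deviations from group means, permuted within groups (576 arrangements), the numbers were 3 and 0. With so few arrangements a single pair could not pass adjustment over 45 pairs on its own, so that 0 decides little. Pairs share arrays and genes and are not independent of each other.

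Some pairs joined genes that were high on control 3. Saa2 and Lcn2 correlated at r = 0.86 (exact permutation p = 0.00588, adjusted p = 0.175) and rho = 0.79 (exact p = 0.0279, adjusted p = 0.314). Within groups r was 0.86 (exact p = 0.0243, adjusted p = 0.365), and without control 2 and hydrogen water 1, the arrays farthest from the Saa2 median, it was 0.76. In both genes control 2 was the lowest and control 3 the highest array. Saa4 and Lcn2 gave r = 0.75 (exact permutation p = 0.0337, adjusted p = 0.295) and rho = 0.74 (exact p = 0.0458, adjusted p = 0.344), with 0.76 (exact p = 0.141, adjusted p = 0.621) within groups. Without controls 1 and 3, the arrays farthest from the Saa4 median, r was 0.69, and without control 3 alone it was 0.45. Saa4 and Orm2 gave r = 0.83 (exact permutation p = 0.0222, adjusted p = 0.271), rho = 0.52 (exact p = 0.197, adjusted p = 0.737) and 0.78 (exact p = 0.151, adjusted p = 0.621) within groups. That relation rested on controls 1 and 3, without which r was −0.29.

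Hpx and Apcs gave r = 0.73 (exact permutation p = 0.0415, adjusted p = 0.295) and rho = 0.76 (exact p = 0.0368, adjusted p = 0.331). Within groups it was 0.84 (exact p = 0.0104, adjusted p = 0.365) and, without control 3 and hydrogen water 4, 0.81. Hp and Apcs, both low on hydrogen water 3 and 4, gave r = 0.77 (exact permutation p = 0.0241, adjusted p = 0.271) and rho = 0.67 (exact p = 0.0831, adjusted p = 0.415), with 0.69 (exact p = 0.113, adjusted p = 0.621) within groups. Without hydrogen water 3 and 4, the arrays farthest from the Hp median, r was 0.24. Among the 4 controls alone it was 0.77, but Hp spans only 0.045 over those arrays. Saa1 went with Saa3 at r = 0.72 (exact permutation p = 0.0460, adjusted p = 0.295) and rho = 0.79 (exact p = 0.0279, adjusted p = 0.314). That pair stood at 0.70 (exact p = 0.0226, adjusted p = 0.365) within groups and at 0.70 without controls 1 and 4. Saa1 and Itih4 gave r = 0.88 (exact permutation p = 0.00776, adjusted p = 0.175) and rho = 0.69 (exact p = 0.0694, adjusted p = 0.390), with 0.88 (exact p = 0.255, adjusted p = 0.621) within groups. It rested on controls 1 and 4 (0.40 without them), and Itih4 spans only 0.12 over all arrays. Saa1 and Saa2, whose upstream windows are near identical, gave r = 0.39 (exact permutation p = 0.340, adjusted p = 0.648) and rho = 0.52 (exact p = 0.197, adjusted p = 0.737). Within groups they gave 0.35 (exact p = 0.785, adjusted p = 0.895), and without controls 1 and 4 r was 0.097. The low signal of Saa1 limits what its correlations can show. The lowest r of any pair was −0.60 (exact permutation p = 0.120, adjusted p = 0.540), for Hpx and Lcn2, with rho = −0.43 (exact p = 0.299, adjusted p = 0.835) and −0.64 (exact p = 0.227, adjusted p = 0.621) within groups. It rested on control 3 and hydrogen water 4, without which r was 0.035.

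**Figure D4:**
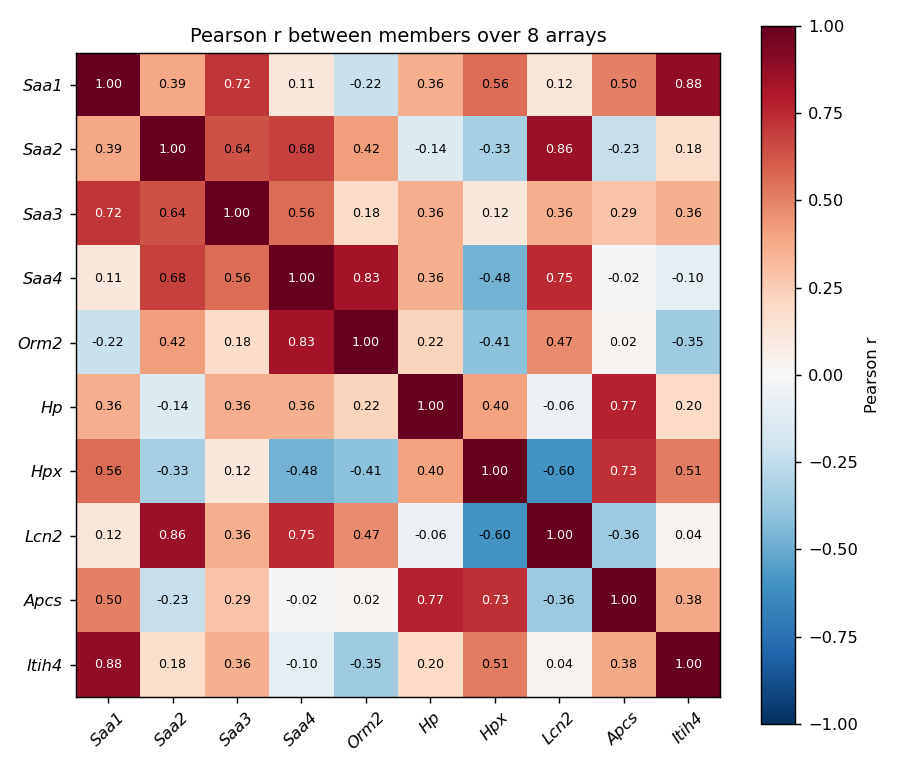
Pearson r over the 8 arrays between each pair of acute phase genes (both axes), from blue (−1) to red (1). Saa2, Saa4 and Lcn2 are red with each other (0.68 to 0.86), Apcs is red with Hp (0.77) and Hpx (0.73), and Hpx with Lcn2 is the bluest cell at −0.60.

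**Figure D5:**
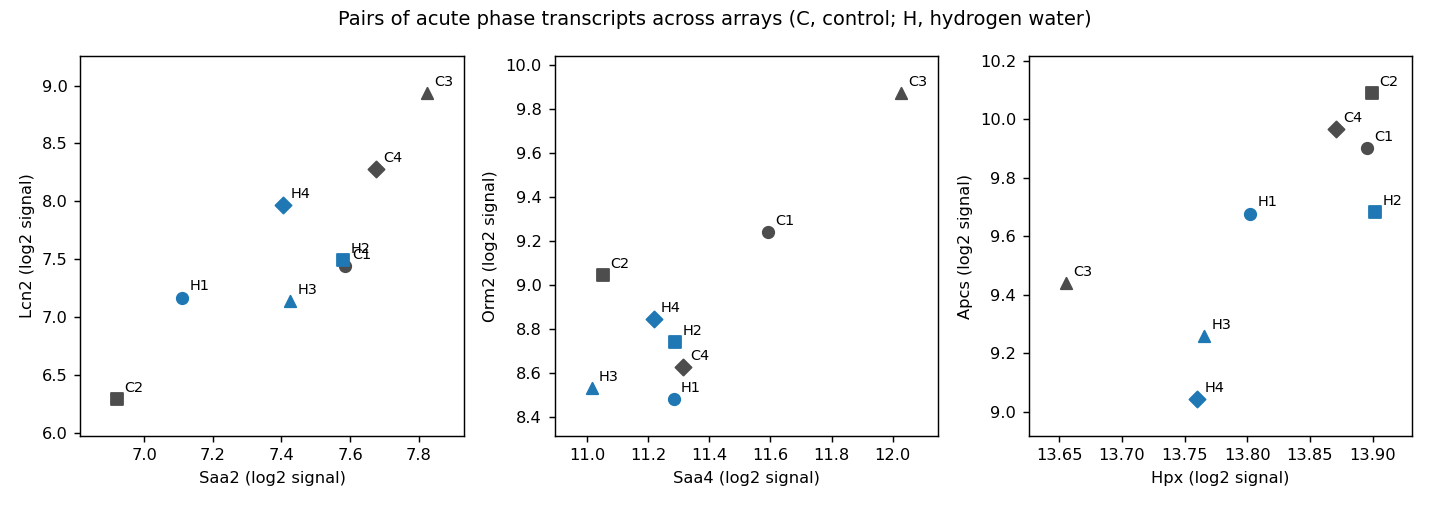
Log2 signals of Lcn2 against Saa2, Orm2 against Saa4 and Apcs against Hpx, 1 point per array (C, control in grey; H, hydrogen water in blue). Control 3 is the upper right point in the first panels (Lcn2 8.94, Orm2 9.87) and the leftmost in the last (Hpx 13.66), and the control and hydrogen water points are intermixed along Saa2 and Lcn2.

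The genes whose pattern was most like the average level of the members were sought among 5786 genes above the median level and the median SD. Highest were Sult1d1, a sulfotransferase (r = 0.95 over the 8 arrays), Enpp3, an ectonucleotidase (0.93), Rassf7 (0.91), Zfp54 (0.91) and Sucnr1, the succinate receptor (0.90). They were followed by Prr16 (0.89), Nxt2 (0.88), Plscr2 (0.88), Slc9a3r2 (0.88) and the cytochrome Cyp2c29 (0.88). Lowest were the splicing factor Srsf1 (−0.94), Vsig2 (−0.92), Igfbp1, a fasting-induced binding protein of insulin-like growth factors (−0.91), Sel1l3 (−0.90) and Rrp15 (−0.90). Igfbp1 stood at 11.50, 13.24, 11.71 and 11.86 in controls and at 13.04, 12.39, 12.54 and 12.90 with hydrogen water, so that control 2 was the highest array and the other controls were the lowest. Of the 10 highest, 4 were again among the 10 highest when group means were removed. Among the members themselves, r with the average of the other 9 was 0.81 for Saa4, 0.77 for Saa2 and 0.68 for Saa3, but 0.048 for Apcs and −0.17 for Hpx. These correlations share arrays and are descriptions.

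Other positive acute phase genes showed no common direction. Of 26 measured, 13 were higher and 13 lower with hydrogen water, 0 passed limma in either direction, and the median difference was 0.0071. An unadjusted p under 0.05 was reached by 1 of 26, beside 7.17% of all genes. The neighbours of Orm2 shared its high control 3: Orm1 stood at 13.07 there against 12.54 to 12.71 on the other 7 arrays, and Orm3 at 7.08 against 5.59 to 6.40. Their differences were −0.15 (SE 0.11; limma adjusted p = 0.824) and −0.34 (SE 0.27; limma adjusted p = 0.847). As a family of related genes, they may share hybridisation with Orm2. Crp, the pentraxin related to Apcs, differed by −0.098 (SE 0.12), the fibrinogen chains Fga, Fgb and Fgg by 0.017, −0.016 and −0.10, the copper carrier Cp by −0.031 and the protease inhibitor Serpina3n by 0.11 (SE 0.13). The metallothioneins, which bind zinc and copper, lay on the other side, at 0.58 (SE 0.25; limma adjusted p = 0.687) for Mt1 and 0.63 (SE 0.30; limma adjusted p = 0.709) for Mt2. Mt2 stood at 11.90, 11.65, 13.00 and 13.32 in controls and at 12.94, 13.11, 13.18 and 13.15 with hydrogen water, so that controls 1 and 2 were low. Hamp, the iron hormone hepcidin, was also lowest in controls 1 and 2 (12.15 and 12.31, against 12.87 to 13.51 elsewhere) and differed by 0.39 (SE 0.27). The fibrinogen-like gene Fgl1 differed by 0.22 (SE 0.13).

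Negative acute phase genes, whose output falls in inflammation, were split as well, with 8 higher and 7 lower of 15 measured, 0 past limma's threshold and a median difference of 0.0098. Alb differed by −0.042 (SE 0.092) and Ttr by 0.018 (SE 0.091). The thyroxine-binding globulin Serpina7 stood at 7.94, 7.99, 7.20 and 7.86 in controls and at 6.58, 6.71, 7.13 and 5.46 with hydrogen water, a difference of −1.28 (SE 0.30; limma adjusted p = 0.617). The corticosteroid-binding globulin Serpina6 differed by −0.36 (SE 0.14; limma adjusted p = 0.683). In both genes hydrogen water lay lower without overlap, as in 2.01% of all genes. They were named for their small p, and 2 of 15 on the list had an unadjusted limma p under 0.05, beside 7.17% of all genes. Apom differed by −0.24 (SE 0.14).

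Among the inducing cytokines, Il6 lay between 2.43 and 2.75 on the 8 arrays, Il1b between 4.14 and 4.85 and Tnf between 4.21 and 4.80, with differences of −0.053 (SE 0.10), 0.27 (SE 0.15) and −0.22 (SE 0.13). Control 3, with the highest Lcn2, stood at 2.64 for Il6 and 4.35 for Il1b, inside the range of the others. Il6, Il1b and Tnf lay below the median level of all genes (5.87) on every array, and 4 of 16 ligands had a mean above it. At such low signals a change in these cytokines may not show. Of 16 measured ligands 7 were higher and 9 lower, and 0 passed limma. An unadjusted p under 0.05 was reached by 1 of 16, beside 7.17% of all genes. Cxcl2, a neutrophil chemokine, differed by 0.31 (SE 0.14), Il18 by −0.29 (SE 0.14) and Il10 by −0.20 (SE 0.11).

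Receptors and adaptors of these cytokines were higher in 9 and lower in 7 of 16 measured, with 0 past limma's threshold. At an unadjusted limma p under 0.05 there were 1 higher (Osmr) and 1 lower (Il1rap), beside 7.17% of all genes. Both were named for their small p. The oncostatin M receptor Osmr stood at 6.10, 6.20, 6.54 and 6.40 in controls and at 6.63, 7.00, 6.67 and 6.76 with hydrogen water. Its groups did not overlap, as in 3.76% of all genes, and differed by 0.46 (SE 0.13; limma adjusted p = 0.623). The interleukin-6 receptor chains Il6ra and Il6st differed by 0.27 (SE 0.15) and 0.21 (SE 0.11), and the interleukin-1 receptor accessory protein Il1rap by −0.24 (SE 0.11). Of 23 measured transcription factors and feedback regulators 14 were higher and 9 lower, again 0 past the threshold. Stat3 differed by 0.12 (SE 0.17), its feedback inhibitor Socs3 by −0.18 (SE 0.22), Cebpb by 0.057 (SE 0.21), Cebpd by 0.28 (SE 0.16), and the NF-kB regulators Nfkbia and Nfkbiz by −0.30 (SE 0.16) and 0.21 (SE 0.13). Socs3, a direct target of STAT3, was highest on control 4 (7.48) and stood at 6.52 on control 3.

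Among 9 partners of haem and haemoglobin clearance 5 were higher and 4 lower, with 0 past limma's threshold. An unadjusted limma p under 0.05 was reached by 1 of 9 (Cd163), beside 7.17% of all genes. Cd163, the macrophage receptor for the haptoglobin-haemoglobin complex, stood at 5.34, 5.24, 5.80 and 5.41 in controls and at 5.62, 5.83, 6.08 and 6.78 with hydrogen water, and differed by 0.63 (SE 0.22; limma adjusted p = 0.641). Lrp1, the receptor for the hemopexin-haem complex, differed by 0.17 (SE 0.099), the haem-degrading Hmox1 by −0.034 (SE 0.15) and Blvrb by −0.27 (SE 0.16).

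Some members are also made outside hepatocytes, so marker lists of other cells are given beside them. Kupffer cell markers were on the higher side in 13 of 14, with 0 past limma's threshold and 4 of 14 at an unadjusted p under 0.05, beside 7.17% of all genes at that level and 51.3% of all genes on the lower side. Their mean log2 signal per array was 6.54 to 6.99 in controls and 6.76 to 7.43 with hydrogen water. Centred per gene, that list was highest on hydrogen water 3 (0.18) and 4 (0.53), where Hp and Apcs were lowest, and stood at 0.092 on control 3. Neutrophil markers, whose cells store lipocalin 2 and orosomucoid, were 8 higher and 7 lower of 15, with a mean signal of 4.22 to 4.41 in controls and 4.20 to 4.33 with hydrogen water. Their centred level was −0.077, −0.012, 0.11 and 0.025 in controls and 0.017, 0.03, 0.0024 and −0.099 with hydrogen water. It was highest on control 3, the array with the highest Lcn2, and lowest on hydrogen water 4, whose Lcn2 was the third highest. S100a8 stood between 3.13 and 3.65, and the lowest value of a neutrophil marker was 2.81. In mean signal, 0 of the 15 neutrophil markers lay above the median of all genes (5.87). At such low signals a change in neutrophil content may not show. Sinusoidal endothelial markers were higher in 11 of 12 (controls 7.92 to 8.37, hydrogen water 8.12 to 8.76), with 0 past limma's threshold and 3 of 12 at an unadjusted p under 0.05. The groups did not overlap in Stab1, Stab2 and Pecam1 of these 12 and in Clec4f of the 14 Kupffer cell markers (higher with hydrogen water). They also lay apart in Plin1 of the 9 adipocyte markers (lower). The other marker lists, of 4 to 15 measured genes each, held no such gene, and 3.76% of all genes did not overlap. These markers were named because their groups did not overlap. Adipocyte markers were lower in 7 of 9 (6.90 to 7.23 and 6.85 to 7.06). Monocyte markers were higher in 4 of 7, stellate cell markers lower in 7 of 12, markers of B, T and NK cells higher in 6 of 13, erythroid markers higher in 3 of 4 and cholangiocyte markers lower in 6 of 7, with 0 past the threshold in each list. The part of these cells in the members' values was not tested.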

How the data were processed

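Gene expression in mouse liver was measured on 8 Affymetrix Mouse Gene 1.0 ST arrays, 1-colour arrays. The deposited table holds log2 signals, 1 per probe set and array, which the authors produced (the submitters' processing notes name Affymetrix Expression Console). The software version, summary method and genome build were not given in the sources used here. The log2 scale was read from the values. Arrays have no read depth, and their number limits precision.

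Groups came from sample titles, and the sample descriptions name hydrogen water in the hydrogen water group alone. The treatment text, hydrogen water included, is the same for all samples. Of 35556 probe sets, 21789 had 1 gene symbol, 1621 several and 12146 none here. Symbols were updated through Entrez identifiers with RefSeq names (assembly GRCm38.p6, used for names and neighbours; 19856 genes matched). Each gene took its probe set with the highest mean. The group comparison was fitted over all 19938 genes by lmFit and eBayes of limma (version 3.58.1; R 4.3.3), two-sided and without covariates, with Benjamini-Hochberg adjustment and a threshold of 0.05, after testing on simulated data. Correlations were tested in Python 3.11.15 by exact permutation, adjusted over 45 pairs; alignments used Biopython 1.88.

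The members, gene lists and patterns were chosen with earlier results of these data known. Named genes were the members, 28 fixed genes (26 measured), the 3 genes of smallest unadjusted p in each list other than markers, and the genes most and least like the members' average. Listed genes without a probe set of their own (202 of 227 had one) and protein sequences are not analysed here. Alternatives tried were a filter on level, other probe set rules, quantile normalization, median centring, a trended robust variance, weighting of arrays, a block for the replicate number, exact permutation of group labels, each array left out and other averages of the members. Leaving out control 3 and hydrogen water 4 together was chosen after seeing the data.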

Additional observations from a re-analysis of the deposited data

Results flagged for a closer look

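In 126 groups of 4 arrays (members, named genes and the members' average, each in controls and with hydrogen water), 6 held an array that stood apart by Dixon's test at the 95% level. Chance alone flags about 1 in 20, or 6.3 of 126. Control 3 was that array 3 times: it was lowest of the controls for Hpx (13.66, against 13.87 to 13.90) and for Serpina7 (7.20), and highest for Orm1 (13.07). Hydrogen water 2 was lowest of its group for Il18 (5.66) and highest for Sult1d1 (12.71), and control 2 was highest for Sel1l3 (8.73).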

How the results depend on the processing

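No member passed limma's threshold under any other setting tried, nor by exact permutation of the group labels (lowest p = 0.0857; the smallest it allows is 0.0286). The lowest adjusted p of a member was 0.335 (Apcs with array weights). Of 169 recomputed member differences 163 kept their sign. The others were Hpx (0.0015) and Itih4 (0.0061) with quantile normalization, Saa3 (0.053) without control 3 and hydrogen water 4 together, and 3 with single arrays left out. There the range was −0.081 to 0.00023 for Hpx (highest without control 2), −0.77 to 0.11 for Lcn2 (highest without control 3) and −0.27 to 0.018 for Saa3 (highest without hydrogen water 4). Apart from the arrays left out, the cause was not tested. Saa1 did not enter the table filtered on level, and members have no second probe set to try.

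Over all genes, the number past limma's threshold ranged from 0 to 1 with single arrays left out: Sucnr1 (−1.18) passed without control 2 and Aqp8 (−0.94) without control 3. It was 3 without control 3 and hydrogen water 4 together (Aqp8, Mir297b and Usp17ld, named after their values were seen). Genes at an unadjusted p under 0.05 numbered 794 with the filter on level, which tests fewer genes, and otherwise 958 to 2069. The members' average differed by −0.21 between groups and by −0.65 SD with genes scaled to unit SD, a change of unit, while other averages gave −0.24 to −0.12. Of the 10 genes most like the members, 4 remained with group means removed. No correlation between members passed adjustment under any alternative. Within groups, and without control 3 and hydrogen water 4 together, the arrangements were too few for a single pair to pass on its own.

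The replicate numbers did not pair the arrays: same-numbered arrays had correlations of deviations between −0.16 and 0.059, and 0 of 8 correlated best with its own number. With the number as a replicate block, 0 genes and 0 members passed and 1313 genes had an unadjusted p under 0.05.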
